A study of Mus musculus with 4 samples.

Results

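The gelsolin family is a group of 8 mouse genes, Avil, Gsn, Vil1, Vill, Capg, Scin, Flii and Svil, taken by symbol from the 54532 genes of an RNA sequencing table. They were chosen by the measured level of advillin (Avil), which differs between the groups compared here, and by membership of its family. The members' differences between these groups are therefore given as a description, and nothing is concluded from their part in the test over all genes. The cells were mouse primary lung fibroblasts by title, in 2 libraries with the genotype Calu-WT (WT) and 2 with Calu-KO. The product of the targeted gene, calumenin, binds calcium in the lumen of the endoplasmic reticulum. The sources used here do not give how Calu was targeted, the age and strain of the mice, or whether replicates were separate animals or cultures, and sample titles have KD where the genotype reads KO. The p-values below thus reflect only the spread between these samples, and that spread may be technical.

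Most proteins of this family bind actin through repeats of the gelsolin domain. Calcium ions switch many of them on and the membrane lipid phosphatidylinositol bisphosphate (PIP2) inhibits them. Gelsolin (Gsn) cuts actin filaments and then caps the growing end of the piece, and scinderin (Scin) does the same in secretory cells. CapG (Capg) caps filament ends without cutting them and is abundant in macrophages. Villin (Vil1) bundles the filaments of intestinal microvilli with the help of an additional domain, the headpiece, which advillin and villin-like (Vill) share. Advillin is best known from sensory neurons and tuft cells. Flightless I (Flii) joins gelsolin domains to leucine-rich repeats, and supervillin (Svil) is a large protein that links actin and myosin II to the plasma membrane.

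Values are FPKM, a fragment count scaled by how long the gene is and by library, here with median-of-ratios scaling in place of total reads. Reads per gene were recovered from them, at 15635448 to 16510048 per library. In the libraries labelled Calu-KO, Calu stood at 14.9 and 10.9 FPKM, against 178 and 177 FPKM in WT. The mitochondrial share of reads was 2.43% to 2.53% in 3 libraries and 4.0% in replicate 2 of Calu-KO. Of 10 fibroblast markers, 7 reached 1 FPKM in a library, among them Col1a1, Col1a2, Pdgfra and Vim. Dcn and Lum, markers of lung fibroblasts, were listed at 0 in each library, and Thy1 had 2 to 6 reads. The gene of the actin monomer-binding protein Tmsb4x, which most cells use, was also listed at 0 in 3 of the 4 libraries, so a 0 in this table, here and for the markers below, is not read as absence of the RNA.

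The upstream sequences of Avil and Vil1 are shown because Vil1 is nearest to Avil among the 6 members whose coding sequence was compared with it, while Avil is the most abundant member in WT and Vil1 is almost silent. Aligned bases of the longest coding sequences of Avil (2457 bases) and Vil1 (2481 bases) were 65.8% identical, against 61.3% to 64.0% for Avil with the other 5. Both windows hold the 250 bases before the RefSeq start, in GRCm38.p6 on the plus strand, at chr10:127000459-127000708 for Avil and chr1:74409134-74409383 for Vil1. Capitals mark matches, on either strand, to the TATA box letters TATAAA, the CCAAT box, the GC box letters GGGCGG, the AP-1 site letters TGANTCA or the CArG box, the element bound by serum response factor.
Avil: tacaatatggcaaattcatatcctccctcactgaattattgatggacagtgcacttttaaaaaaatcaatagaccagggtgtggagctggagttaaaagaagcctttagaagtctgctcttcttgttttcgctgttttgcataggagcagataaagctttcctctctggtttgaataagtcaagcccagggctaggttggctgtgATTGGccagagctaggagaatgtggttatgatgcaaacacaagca
Vil1: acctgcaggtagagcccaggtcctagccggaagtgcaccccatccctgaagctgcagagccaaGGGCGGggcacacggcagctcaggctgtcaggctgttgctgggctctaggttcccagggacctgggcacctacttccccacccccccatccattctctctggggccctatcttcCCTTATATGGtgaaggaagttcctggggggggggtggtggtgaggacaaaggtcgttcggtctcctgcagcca
The Avil window held 1 CpG, fewer than most of the 32851 windows of this length (median 6; 7.87% had fewer), and a GC content of 42.0%. Its 1 match was a CCAAT on the opposite strand, a motif in 33.8% of all windows. The Vil1 window held 5 CpG, 1 GGGCGG (in 32.7% of windows) and 1 CArG box (in 1.47%). TATAAA (12.4% of windows) and TGANTCA (6.75%) were in neither, and these matches describe letters, not bound sites. Of the 8 members 7 had windows in the table, 9 in all. The windows of Flii, with 17 CpG, and of the first Gsn start, with 15, were the richest in CpG. No 50-base word was shared between the annotated transcripts of any pair of members, so reads of one would not be expected to match another over such a length.

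Avil had the highest FPKM of the members in WT and, of the 5 members that were tested, the log2 difference farthest from 0. It lies on the plus strand of chromosome 10 (127000709 to 127020994, mm10; ENSMUSG00000025432, protein coding). Its level was 125 FPKM in WT replicate 1 and 122 FPKM in WT replicate 2, and 31.9 and 34.2 FPKM in Calu-KO replicates 1 and 2. Both Calu-KO libraries lay far below both WT libraries, and the libraries within each group were close together. The Calu-KO mean, 33.04 ± 1.63 FPKM, was 3.73-fold below the WT mean, 123 ± 2.40 FPKM (SD, n = 2 each), with a log2 difference of -1.87 ± 0.11 (SE) on the log2(FPKM + 1) scale used throughout. The reads behind these values were 6952 and 6862 for WT, 1832 and 1698 for Calu-KO. Of the 11885 genes tested, those averaging 1 FPKM or more over the libraries, 317 stood above Avil in WT and 33 had a lower log2 difference. In bulk RNA, fewer cells that express a gene and less RNA of it per cell cannot be told apart.

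**Figure D1:**
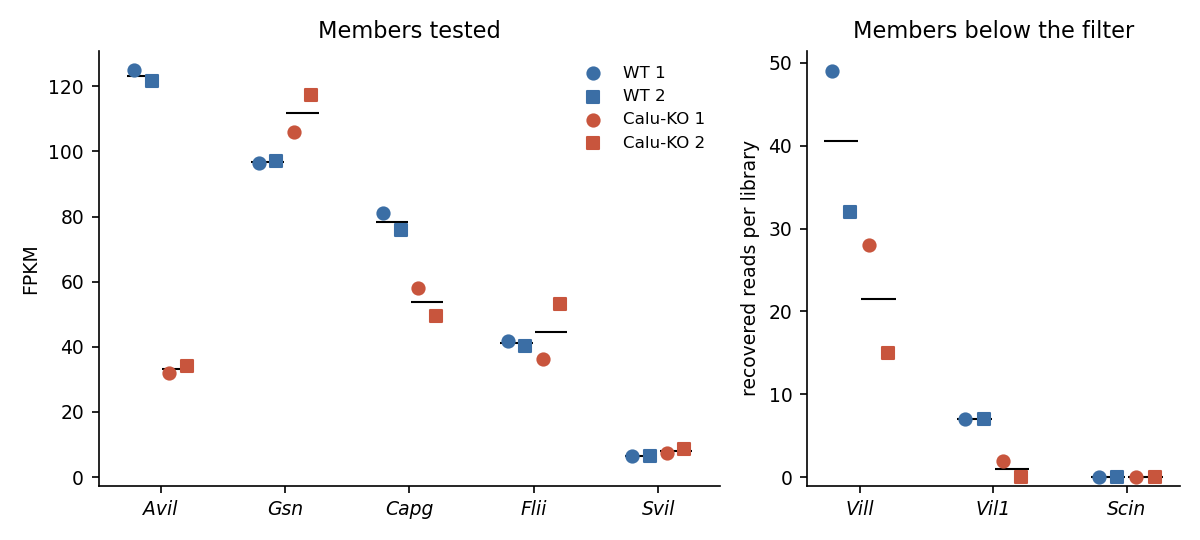
Left, FPKM of the 5 tested members; right, recovered reads per library of the other 3, with both axes linear. Points are libraries (circles replicate 1, squares replicate 2; blue WT, red Calu-KO) and bars group means; Avil stands at 122 to 125 FPKM in WT and 31.9 to 34.2 FPKM in Calu-KO, while Flii overlaps between the groups.

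Gsn, the family's namesake, differed the other way and by little. It stood at 96.4 and 97.1 FPKM in WT and at 106 and 117 FPKM in Calu-KO. Both Calu-KO libraries were above both WT libraries, and the log2 difference was 0.20 ± 0.11 (SE). With libraries scaled to total reads it was 0.10. Gsn (chromosome 2, 35256380 to 35307892, mm10) had 3 annotated starts in the RefSeq table, and gene-level values do not tell secreted from cytoplasmic gelsolin.

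Capg was lower in Calu-KO. It stood at 81.1 and 75.8 FPKM in WT and at 58.1 and 49.5 FPKM in Calu-KO, so the groups did not overlap. The Calu-KO mean, 53.8 ± 6.12 FPKM, was 1.46-fold below the WT mean, 78.5 ± 3.70 FPKM (SD, n = 2 each), with a log2 difference of -0.54 ± 0.13 (SE). Macrophages carry much Capg RNA, and markers of that cell type were lower as well. The summed level of 10 macrophage markers was 16.7 and 17.1 FPKM in WT and 7.70 and 6.56 FPKM in Calu-KO. That sum came mainly from Lyz2, Cd68 and Cd14, the 3 of 10 that reached 1 FPKM, while Adgre1, Itgam and Mrc1 were listed at 0 in each library. Csf1r had 12 and 17 reads (WT) against 5 and 7 (Calu-KO), and Ptprc had 1 read in each WT library and 0 in each Calu-KO library. Lyz2, lysozyme, stood at 6.59 and 7.23 FPKM in WT and at 1.71 and 1.25 FPKM in Calu-KO. Their part in the Capg values was not tested.

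Flii and Svil made up the rest of the measured family. Flii stood at 41.8 and 40.4 FPKM in WT and at 36.3 and 53.0 FPKM in Calu-KO, 1 library below and 1 above both WT values. Its log2 difference was 0.09 ± 0.20 (SE), and -0.01 with libraries scaled to total reads. Svil, on chromosome 18, stood at 6.51 and 6.42 FPKM in WT and at 7.29 and 8.61 FPKM in Calu-KO, higher in both, with a log2 difference of 0.26 ± 0.13 (SE). Its level was near the middle of all tested genes in WT, above 41.8% of them.

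The 3 remaining members were below the filter of 1 FPKM. Vill was covered by 49 and 32 reads in the WT libraries, against 28 and 15 in those of Calu-KO. Its scaled read rate in Calu-KO was 0.556 of that in WT, with an exact 95% binomial interval of 0.375 to 0.814, which like the next covers counting error only. Vil1 had 7 reads in each WT library and 2 and 0 reads in the others, a rate of 0.149 of WT with an interval of 0.0165 to 0.651. Scin was listed at 0 in all 4 libraries, where 3 reads would have been worth 0.0592 to 0.0685 FPKM.

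Set by length-normalised level, the order in WT was Avil, Gsn, Capg, Flii, Svil, Vill, Vil1 and Scin, and no neighbours in it overlapped between the 2 libraries. In Calu-KO Gsn led, Capg and Flii overlapped, and Avil followed below both. With 2 libraries a side, the smallest two-sided p of an exact permutation test is 0.333, so neighbours were not tested. Of the 8 members 5 entered the test over all genes. Avil was the 1 member called, as lower, where 1.83% of 11885 genes were called lower and 0.942% higher, but the members were chosen with this comparison in view and nothing is read from the count. Both Calu-KO libraries lay below both WT libraries for 2 of the 5 (29.7% of all tested genes) and above them for 2 (32.0%), which is near the background. The median log2 difference was 0.09 for the 5 members and 0.01 for all tested genes.

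The family's summed level was 352 and 342 FPKM in WT and 240 and 263 FPKM in Calu-KO, a mean of 347 ± 6.87 against 251 ± 16.1 FPKM (SD, n = 2 each). Without Avil the sums were 227 and 220 FPKM in WT and 208 and 229 FPKM in Calu-KO, and the groups overlapped. The share of Avil was 35.5% and 35.6% of the sum in WT and 13.3% and 13.0% in Calu-KO. The share of Gsn was 27.4% and 28.4% in WT and 44.2% and 44.6% in Calu-KO. Avil was thus 1.30 and 1.25 times as abundant as Gsn in the WT libraries and 0.301 and 0.292 times in the Calu-KO libraries.

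**Figure D2:**
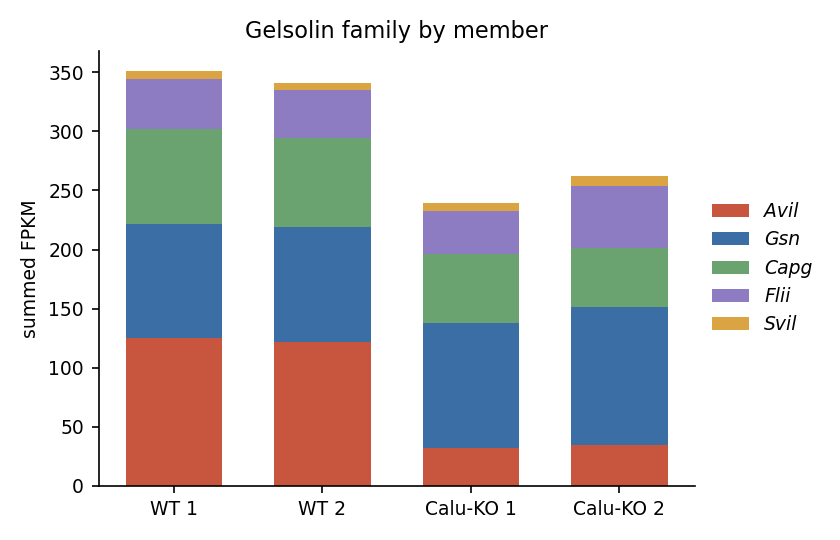
Summed FPKM (linear axis from 0) of the 5 members above the filter in each library, with 1 colour per member; Vill, Vil1 and Scin are too low to draw. The Avil segment takes 35.5% and 35.6% of the family in WT and 13.3% and 13.0% in Calu-KO, while the sum of the others overlaps between the groups.

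Of 11 alternatives to the processing, 7 can move a member's log2 difference, and the other 4 change only its error or the genes tested. Under those 7 the direction of 4 of the 5 tested members held. The groups did not overlap for these 4, so leaving out 1 library could not have turned their direction. The log2 difference ran from -1.98 to -1.82 for Avil and from -0.65 to -0.43 for Capg. It ran from 0.10 to 0.27 for Gsn and from 0.15 to 0.36 for Svil. For Flii it ran from -0.17 to 0.36, with the first value without Calu-KO replicate 2 and the second without Calu-KO replicate 1, so its sign rested on 1 library.

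**Figure D3:**
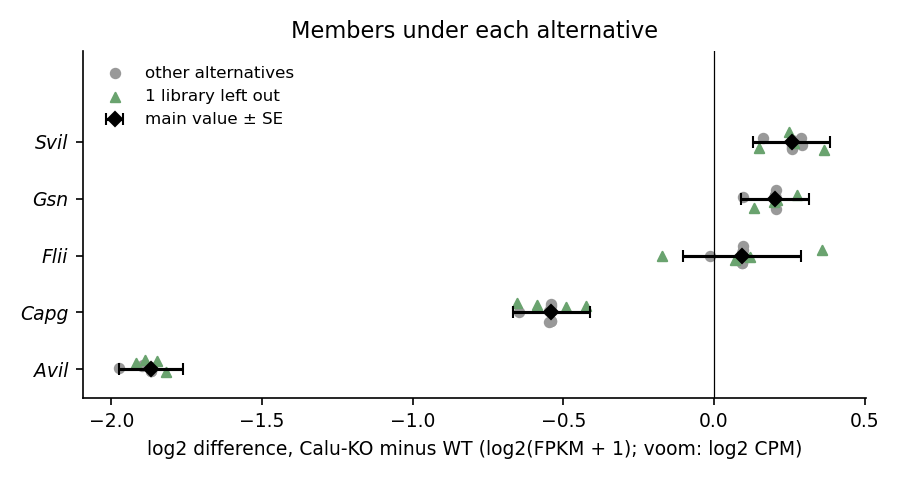
Log2 difference of each tested member, Calu-KO minus WT, as the main value ± SE (diamond). Triangles have 1 library left out, and circles are the other alternatives. For each member 1 circle is on the log2 scale of reads, scaled by library as the FPKM values were but not by gene length. Avil stays between -1.98 and -1.82, and Flii lies on both sides of 0.

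Genes around Avil differed less than Avil did, but Avil was chosen for its difference, so nothing is read from that. Of 16 other genes of the table within 100 kb of its ends 10 were tested, and 0 passed by limma or by voom, where 2.77% and 6.98% of all tested genes did. At an unadjusted p under 0.05 there were also 0 (24.8% of all tested genes). Their log2 differences ran from -0.57 to -0.04 with a median of -0.19, and all 10 were negative, as were 49.3% of all tested genes. Tsfm, which encodes a mitochondrial translation factor, lies on the minus strand and overlaps the 3′ part of Avil. Its level was 17.2 and 17.7 FPKM in WT and 15.2 and 8.51 FPKM in Calu-KO (log2 difference -0.57 ± 0.26, SE; adjusted p = 0.251). The genes share 165 of the 3398 exonic bases of Avil, and as the use of strand in counting was not given, reads there cannot be assigned to one of them. Ctdsp2, a phosphatase gene just upstream on the plus strand, stood at 46.7 and 43.5 FPKM in WT and at 38.9 and 40.4 FPKM in Calu-KO (log2 difference -0.18 ± 0.11, SE; adjusted p = 0.347). Among the other members, Flii shares 64 exonic bases with Llgl1 and Vil1 shares 49 with Usp37. Gsn and the unconfirmed transcript Gm43128 overlap on the same strand but share 0 exonic bases.

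**Figure D4:**
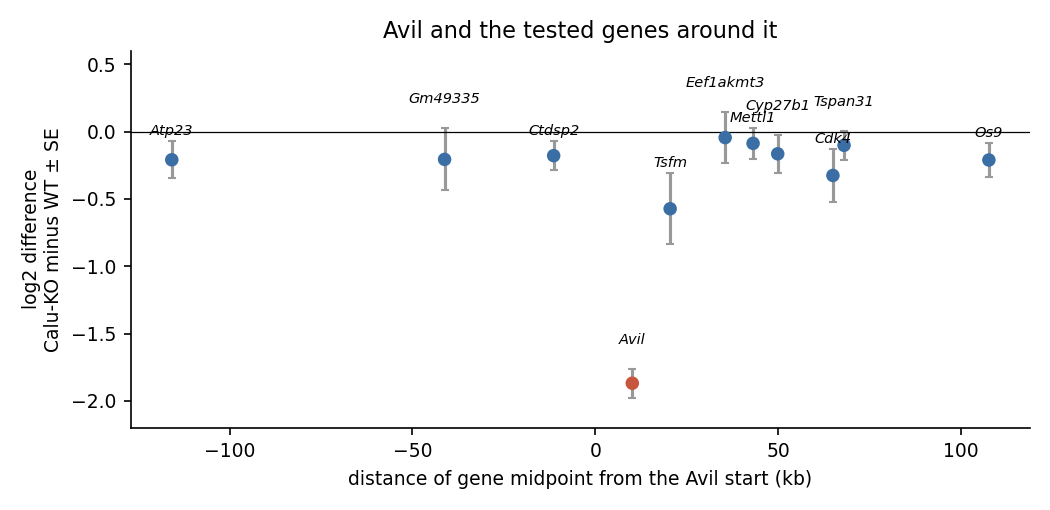
Log2 difference ± SE, Calu-KO minus WT, of Avil (red) and the 10 tested genes within 100 kb of its ends (blue), by distance of the gene's midpoint from the Avil start in kb. The neighbours lie between -0.57 and -0.04, and Avil at -1.87.

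Cell types known for Avil were checked by their markers. Of 10 sensory neuron markers 0 reached 1 FPKM in any library, and Isl1, Scn9a, Tubb3 and Elavl4 were listed at 0. Their summed level was 0.126 to 0.309 FPKM. Of 10 tuft cell markers Dclk1 and Ltc4s reached 1 FPKM, and the summed level was 21.3 and 21.4 FPKM in WT and 12.7 and 18.4 FPKM in Calu-KO. Dclk1, a kinase gene that is also expressed outside tuft cells, made up most of that sum. Without it, a choice made after the values were seen, the sum was 4.05 and 4.43 FPKM in WT and 2.04 and 1.38 FPKM in Calu-KO. Both Calu-KO libraries lay below both WT libraries for 7 of the 10, of which 1 passed the filter of 1 FPKM. The share was 29.7% among all tested genes, but that is no background for the 8 of the 10 below the filter. Genes with at least 1 read numbered 20477 and 20429 in the WT libraries and 19772 and 18739 in those of Calu-KO. Ltc4s, leukotriene C4 synthase, stood at 2.95 and 2.91 FPKM in WT and at 1.75 and 1.28 FPKM in Calu-KO (limma adjusted p = 0.109). The cation channel gene Trpm5 had 38 and 34 reads (WT) against 13 and 5 (Calu-KO), and Sh2d6 had 12 and 14 against 3 and 1. Pou2f3, the defining transcription factor, Il25, Alox5ap and Plcg2 had 1 to 5 reads in each WT library and were listed at 0 in Calu-KO, and Gnat3 was listed at 0 throughout. These 7 markers were lower beside Avil, most of them on few reads, and their part in its values was not tested. Of 10 epithelial markers, which bear on Vil1, Krt8 and Scgb1a1 reached 1 FPKM, Epcam, Cldn4 and Sftpc were listed at 0, and the sum was 3.43 and 3.85 FPKM in WT and 0.585 and 0.619 FPKM in Calu-KO. Krt8 made up most of the WT sum, at 2.75 and 2.28 FPKM in WT and 0.06 and 0.07 FPKM in Calu-KO. Krt18 and Krt19 had higher means in Calu-KO and Scgb1a1 and Elf3 lower ones, each on at most 16 reads per library. Of 10 smooth muscle markers, which bear on Svil, Smtn and Des reached 1 FPKM, Cnn1 was listed at 0, and the sum was 30.04 and 31.5 FPKM in WT and 18.1 and 19.7 FPKM in Calu-KO. Smtn and Des made up nearly all of that sum, and Acta2 and Tagln had 0 to 5 reads per library. By limma, 0 of the 2 tested tuft cell markers were called. Of the macrophage markers (3 tested) Lyz2 was called lower (adjusted p = 0.0254), and of the epithelial markers (1 tested) Krt8 was (0.0274). Of the smooth muscle markers (2 tested) Des was called lower (0.0412), and of the fibroblast markers (7 tested) Col3a1 was (0.0115). Among all tested genes 1.83% were called lower. The part of these marker sets in the members' values was not tested.

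The protein-coding genes nearest to Avil in pattern were sought among 10201 that were tested, by the root mean square difference over the 4 libraries of log2(FPKM + 1) less its WT mean. They were Pla2g4a, the cytosolic phospholipase A2 (0.051), Cdsn, corneodesmosin (0.097), Hapln4, a hyaluronan link protein (0.10), Gpr153, an orphan receptor (0.10), and Slc44a1, a choline transporter (0.11). The median over all compared genes was 1.33, and 26 genes lay within 0.2 of Avil. A gene that does not differ between the groups scores near that median because Avil itself differs. The median is thus no measure of how unusual these genes are. Cdsn stood at 45.4 and 45.03 FPKM in WT and at 13.0 and 11.9 FPKM in Calu-KO, 3.63-fold lower. Pla2g4a stood at 7.24 and 7.34 FPKM in WT and at 1.15 and 1.21 FPKM in Calu-KO. Hapln4 stood at 2.26 and 2.50 FPKM in WT and was listed at 0 in both Calu-KO libraries. The scale compresses low values, so genes that were nearly lost rank beside Avil, which kept 0.268 of its WT level.

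Other regulators of actin filaments, 70 genes of 9 lists that do not hold the members, were read from the same fit, where 2.77% of all genes were called. Of 51 tested, Fscn1 rose and 0 fell by limma at an adjusted p under 0.05. At an unadjusted p under 0.05 there were 8 higher and 6 lower, where 12.0% and 12.7% of all tested genes were. limma's voom on recovered reads called 4 higher and 3 lower, against 3.04% and 3.95% of all tested genes. The median log2 difference was 0.02, against 0.01 for all tested genes. Fscn1 encodes fascin, which bundles filaments of filopodia, and stood at 378 and 380 FPKM in WT and at 746 and 715 FPKM in Calu-KO. It rose 1.93-fold (log2 difference 0.95 ± 0.12, SE; limma adjusted p = 0.0335). The call was lost without WT replicate 1 (adjusted p = 0.414), without WT replicate 2 (0.414), with libraries scaled to total reads (0.0763) and with lower filters (0.0696 and 0.171), and was kept in 6 of 11 alternatives, with adjusted p from 0.00255 to 0.414.

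In that fit none of the other 8 lists had a gene past the threshold, but other settings called some of their genes. Mmp14 passed with libraries scaled to total reads, Ablim1 with the replicate block, and Capza2, Mical1 and Mmp14 with at least 20 mean reads. voom called these 4 and also Cfl2 and Coro7, and more passed without a Calu-KO library. Mical1, Cfl2 and Coro7, which act in filament turnover, are named after their values were seen, with log2 differences of -0.97 ± 0.19, 0.65 ± 0.15 and -0.75 ± 0.17 (SE) and adjusted p of 0.0717, 0.0931 and 0.0891 by limma. Unadjusted counts by list, below, read against the shares of all tested genes just given. Among 13 tested genes of severing and turnover (1 higher and 2 lower at an unadjusted p under 0.05), Cfl1, cofilin, averaged 281 ± 5.83 FPKM (WT) and 252 ± 26.5 FPKM (Calu-KO), and Dstn, destrin, 91.3 ± 4.72 and 115 ± 19.4 FPKM (SD, n = 2 each). Among 12 capping genes (2 higher and 1 lower), the capping protein subunit genes Capza2 and Capzb had log2 differences of 0.61 ± 0.11 (SE; adjusted p = 0.0606, and 0.00354 to 0.61 over the alternatives) and 0.10 ± 0.11. Of the monomer-binding genes (3 tested, 0 and 0), the profilin gene Pfn1 stood at 199 and 191 FPKM in WT and at 174 and 126 FPKM in Calu-KO. Tmsb10, thymosin beta 10, stood at 75.5 and 68.9 FPKM in WT and at 84.4 and 30.8 FPKM in Calu-KO, on both sides of WT. Among 8 kinases and phosphatases of cofilin (1 and 1), Limk1 and Ssh3 had log2 differences of 0.11 ± 0.13 and -0.16 ± 0.12 (SE).

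The partners closest to the family had no gene past the threshold in that fit. Of 4 other genes of headpiece proteins 1 was tested, Ablim1, at 2.66 and 2.85 FPKM in WT and 4.95 and 6.59 FPKM in Calu-KO (log2 difference 0.84 ± 0.16, SE; adjusted p = 0.0752, and 0.0049 to 0.45 over the alternatives). Of the PIP2 kinases, which make the lipid that inhibits gelsolin, Pip5k1c had a log2 difference of -0.48 ± 0.12 (SE; adjusted p = 0.112) and Pip5k1a one of 0.02 ± 0.12. The genes of the flightless-binding proteins Lrrfip1 and Lrrfip2 had -0.18 ± 0.10 and 0.03 ± 0.12. Of 3 proteases that cleave gelsolin, Mmp14, a membrane metalloproteinase, stood at 51.8 and 51.7 FPKM in WT and at 29.4 and 34.4 FPKM in Calu-KO (log2 difference -0.69 ± 0.12, SE; adjusted p = 0.0647, and 0.00373 to 0.539 over the alternatives).

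**Figure D5:**
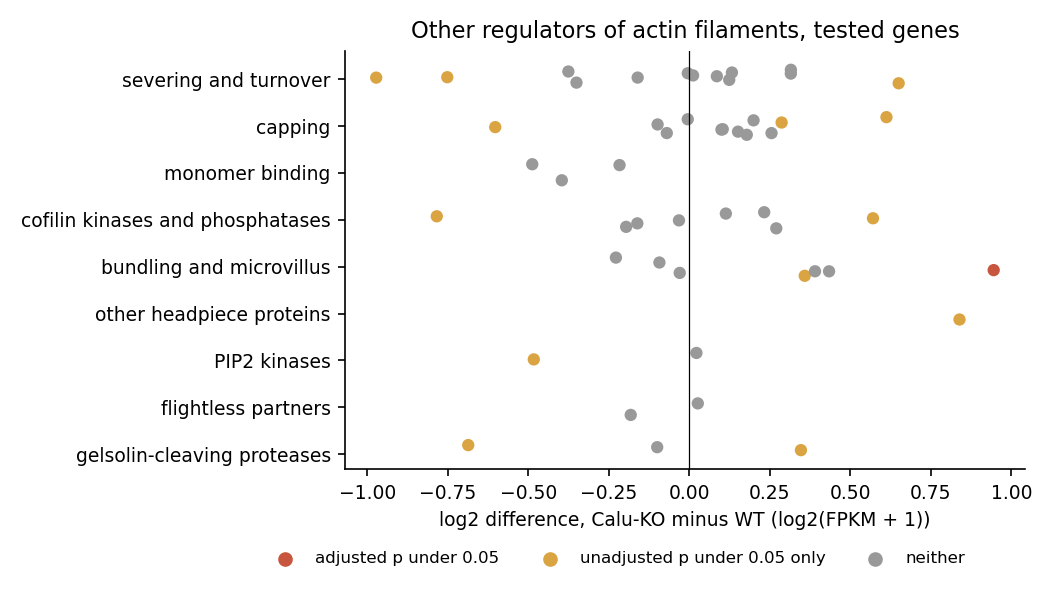
Log2 difference, Calu-KO minus WT, of the 51 tested genes of other actin filament regulators, 1 row per list and 1 point per gene, coloured by the limma result. Fscn1, at 0.95, is the 1 gene past the adjusted threshold, and the lists spread on both sides of 0.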

How the data were processed

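RNA was measured in 2 WT and 2 Calu-KO libraries, grouped and numbered by the sample descriptions. Per the labels' protocols, HISAT2 2.0.5 aligned the paired-end reads, and per the submitters' processing notes the build was mm10. The sources used here do not name the counter, annotation, strand setting or the program behind the values. The authors deposited 1 table of FPKM values for 54532 genes. FPKM times gene length moved in whole steps for 100% of values (tolerance 0.001 reads), which gave reads per gene, and the steps follow median-of-ratios scaling. One read in 1 kb was worth 0.0591 to 0.0684 FPKM.

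The 11885 genes averaging 1 FPKM or more were compared as log2(FPKM + 1), a scale that understates changes of low genes, with limma 3.58.1 in R 4.3.3 (lmFit, eBayes with trend; two-sided, Benjamini-Hochberg, threshold 0.05). The fit was tested on simulated data. There unchanged genes made up a larger share of the calls than the threshold of 0.05 allows. Among calls with 20 or more mean reads their share was below it. A filter of 20 mean reads was then added as an alternative, and 14 genes called at the main setting had fewer. The fit does not model counts, as edgeR and DESeq2 do, and neither was run on this table. Members, gene lists and the rule for named genes were chosen with earlier results of these data known. The rule took Calu, the members, the 5 genes nearest to Avil, list genes past the threshold or else the most abundant 2 of a list, and overlapping or adjacent genes; markers were named by their list. Exons and transcripts came from GENCODE M21, promoter windows from RefSeq (GRCm38.p6). Pairs of WT and Calu-KO replicates differed by more than counting error (median chi-square per gene 1.23 and 9.94).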

Additional observations from a re-analysis of the deposited data

How the results depend on the processing

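The number of calls over all genes, 112 higher and 217 lower, moved with most settings. It was 45 higher (152 lower) with libraries scaled to total reads, 29 and 99 with a filter of 0.1 FPKM, 0 and 0 with no filter (limma; 3886 genes at an unadjusted p under 0.05), 361 and 469 with limma's voom, and 181 and 336 with at least 20 mean reads. With 1 library left out it ran from 8 to 2926 higher and from 34 to 2805 lower; the low ends came without a WT library, the high ends without a Calu-KO library, where the single library is taken to vary as the other group does. Total-read scaling moved the median of all genes from 0.01 to -0.09 and the higher share of calls from 34.04% to 22.8%. Of the other actin regulators, 1 was higher and 0 lower. These counts were 0 and 1 with total-read scaling, 0 and 0 with either lower filter, 4 and 3 with voom and 2 and 2 with at least 20 mean reads, and ran from 0 to 16 and from 0 to 11 with 1 library left out. voom and the 20-read filter were chosen after seeing the data. With the replicate block 181 genes were higher and 312 lower, and 2 regulators (Fscn1 and Ablim1) were higher and 0 lower. Deviations of same-numbered libraries correlated at 0.015 across genes, so the numbers were not taken to pair the samples. edgeR and DESeq2, planned as alternatives, were not run, and voom was run on the recovered reads in their place. The cause of these shifts was not tested. Depth limits Vill, Vil1 and Scin to a description of reads.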

Other observations

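Thymosin beta 4 (Tmsb4x), the main actin monomer buffer of many cells, was listed at 0 in both WT libraries and in Calu-KO replicate 1, and had 10 reads in Calu-KO replicate 2, while its relative Tmsb10 had 575 to 1820 reads per library. The value for Tmsb4x was not read as a level of the gene. Scin, at 0 in each library, lies on chromosome 12 at 40059769 to 40134228 (mm10).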
